A study of Mus musculus with 2 samples.

Results

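Group 2 innate lymphoid cells (ILC2) of the mouse mesentery were picked out of whole-tissue single-cell transcriptomes by the genes they carry, so the members were chosen by measured values of these same libraries. A cell barcode entered the ILC2 gate if the raw UMIs (counted RNA molecules) of Gata3, Il1rl1, Hs3st1, Ccdc184, Il5 and Calca summed to at least 3. It also had to lack Cd3e, Cd3d, Cd79a and Cd79b, with at most 2 UMIs of Dcn, at most 1 of Cdh5 plus Cldn5, at most 1 of Msln plus Upk3b and at most 2 of C1qa. The gate held 120 of the 3143 barcodes that showed 200 genes or more and no more than 10% mitochondrial UMIs, 64 of 1484 in library 1 and 56 of 1659 in library 2. That is 4.31% of library 1 (exact Clopper-Pearson 95% interval 3.34 to 5.47%) and 3.38% of library 2 (2.56 to 4.36%), and these intervals cover counting error only. The study sequenced cells of the whole mesentery, freed with Liberase DH, a collagenase blend, as droplet libraries (Chromium 3′, version 2 reagents). Each of the 2 libraries came from 1 untreated male mouse of the inbred strain C57BL/6N, wild type, with no other allele or agent, and both mice form 1 group. The age is not used here, and no comparison of conditions is possible. The question taken here is what distinguishes the ILC2 of this tissue from its other lymphocytes, and how far single ILC2 differ from each other.

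ILC2 are tissue-resident lymphocytes that carry no rearranged antigen receptor and that need the transcription factors GATA3 and RORα. They answer alarmins such as IL-33, released by damaged or stimulated stromal cells, with the type 2 cytokines IL-5 and IL-13, which feed eosinophils and act on epithelium and macrophages. Fat-associated lymphoid clusters of the mesentery are one of the sites where such cells were described, and the neuropeptide CGRP, a product of Calca, is known both as a signal to them and as one of their own products.

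Il5, Il13 and Csf2, the genes of IL-5, IL-13 and GM-CSF, lie on chromosome 11, and their promoters are shown because each holds a GATA motif, the letters that GATA3 recognises. Il5 (ENSMUSG00000036117) spans chr11:53720794-53725106 on the plus strand, Il13 (ENSMUSG00000020383) chr11:53631324-53634702 and Csf2 (ENSMUSG00000018916) chr11:54247271-54249667, both on the minus strand, in GENCODE M21 on GRCm38. The RefSeq windows on GRCm38.p6 run from 250 bases before the transcription start to 50 after it, 5′ to 3′ on the gene's strand, with GATA motifs in capitals. They are chr11:53720544-53720843 for Il5, chr11:53634653-53634952 for Il13 and chr11:54249850-54250149 for Csf2. The RefSeq start of Csf2 lies upstream of the GENCODE gene, so its window covers other bases than the region just before the GENCODE start.
Il5: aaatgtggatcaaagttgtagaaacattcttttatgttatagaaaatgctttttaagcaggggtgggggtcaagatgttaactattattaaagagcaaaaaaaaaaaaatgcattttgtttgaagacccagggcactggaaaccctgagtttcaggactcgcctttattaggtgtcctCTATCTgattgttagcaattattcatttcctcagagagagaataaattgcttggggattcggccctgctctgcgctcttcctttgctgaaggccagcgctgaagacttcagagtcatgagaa
Il13: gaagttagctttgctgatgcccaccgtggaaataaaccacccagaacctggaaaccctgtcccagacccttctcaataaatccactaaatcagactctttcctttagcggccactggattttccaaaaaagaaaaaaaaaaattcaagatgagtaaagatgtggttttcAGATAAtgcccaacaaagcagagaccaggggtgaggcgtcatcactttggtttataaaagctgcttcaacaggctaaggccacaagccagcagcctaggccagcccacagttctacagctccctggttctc
Csf2: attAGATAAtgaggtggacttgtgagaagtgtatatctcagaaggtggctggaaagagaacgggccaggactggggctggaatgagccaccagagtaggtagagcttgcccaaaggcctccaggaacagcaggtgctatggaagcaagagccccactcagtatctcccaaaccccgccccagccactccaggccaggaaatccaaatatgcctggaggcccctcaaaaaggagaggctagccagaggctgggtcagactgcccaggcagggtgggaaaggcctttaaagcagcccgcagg
The GATA motif was searched as AGATAA, as AGATAG, as TGATAA and as TGATAG, on both strands. The first base of the match lay 72 bases before the start in Il5, where it reads CTATCT, the other strand's AGATAG. It lay 81 bases before the start in Il13 and 247 in Csf2. Such a motif was present in 29.8% of 32851 RefSeq promoter windows of the same length and in 18.6% of 6893 windows of genes tested against Cd3e-positive cells. It was present in 82 of 346 windows (23.7%) of the genes higher in the ILC2 gate, which cover 257 genes. None of these 3 windows held the AP-1 motif TGANTCA, the cyclic AMP response element TGACGTCA or a kappaB motif, found in 7.81%, 1.79% and 4.51% of all windows; no overlap with the GATA motif therefore arose. These matches describe letters, not binding.

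Members carried 117521 UMIs in library 1 and 110074 in library 2, of 5137671 and 5563521 UMIs deposited for 1517 and 1687 barcodes. Their median was 1817 and 1879 UMIs per cell, close to the 1827 and 1717.5 of Cd3e-positive cells and below the 3225.5 and 2758 of all other barcodes, and 781 and 747 genes. Levels below are counts per 1000000 UMIs of a gate (CPM), summed over its cells, and paired values are library 1 and then library 2. At these depths a count of 0 in the ILC2 gate allows up to 25.5 and 27.3 CPM, the level of 3 UMIs. No barcode occurred in both libraries. Scrublet, a doublet caller, marked 1 member in library 1 and none in library 2; it marked only 4 barcodes of library 2 in all, so it served as an alternative and not as a filter.

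The 6 genes that chose the members are a description and were not tested. Gata3, the lineage-defining transcription factor, had 2417 and 2189 CPM and was found in 62 of 64 and 56 of 56 members. Il1rl1, which encodes the IL-33 receptor ST2, had 868 and 763 CPM in 45 and 39 members. Hs3st1, a heparan sulfate sulfotransferase gene, had 919 and 809 CPM, and Ccdc184, a coiled-coil gene, 459 and 309 CPM. Il5 had 936 and 718 CPM, carried by 19 and 15 members only. Calca had 1472 and 1163 CPM in 34 and 28 members, and 1 cell of library 2 alone held 37 of its 128 UMIs. The 6 genes summed to a median of 11 and 10 UMIs per member, with extremes of 3 and 47, and 50 and 45 members carried at least 3 of the 6 genes.

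Just inside the threshold, 3 and 2 members had a sum of exactly 3. Their Gata3 level was 1672 and 1345 CPM and their Rora level 1394 and 538. Just outside it, 5 and 7 barcodes met every other limit with a sum of 2, with Gata3 at 400 and 367 CPM and Rora at 400 and 315. The 150 and 216 barcodes with a sum of 0 had Rora at 56.8 and 79.8 CPM. Of the 94 and 96 barcodes with a sum of at least 3, 20 and 31 were kept out by 1 limit and 10 and 9 by several. The limit on Cd3e and Cd3d alone removed 13 and 17 barcodes. These had Gata3 at 1334 and 2098 CPM, Il1rl1 at 1144 and 1002 and Rora at 1176 and 1315, beside Cd3e at 477 and 595, Cd4 at 95.3 and 188 and no Gzma. The gate therefore leaves out barcodes that carry ILC2 genes together with Cd3 transcripts.

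Defining markers of several other cell types had 0 UMIs in the gate, but mast cell markers did not. All 6 genes of the natural killer (NK) gate (Ncr1, Klrb1c, Klre1, Klra8, Gzma and Eomes) had 0 UMIs. Ms4a1, C1qb, Pdgfra and Krt19, which mark B cells, macrophages, fibroblasts and mesothelium, were also at 0. Ptprc, the pan-leukocyte gene CD45, was found in 32 and 30 members. A remaining T cell transcript was Cd3g, which the rule did not use: 12 and 12 members held 21 and 21 UMIs. Asking for 0 UMIs of Cd3g as well left 52 and 44 members. Of 14 mast cell markers 1 was at 0, and the list summed to 256 and 14 UMIs, or 2178 and 127 CPM, against 54.2 and 50.9 CPM in all other barcodes. Without the 2 barcodes described next, it summed to 199 and 124 CPM, and Kit is one of its genes.

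A pair of members stood apart. One barcode of library 1 had 178 UMIs of mast cell genes among its 1693, with Cma1, Tpsb2 and Cpa3 at 73, 69 and 26, 4 UMIs of Il1rl1 and no Gata3; it was the only barcode of the data with at least 5 UMIs of these genes. One barcode of library 2 had 5376 UMIs, the most of any member, with Cd74 at 82, Lyz2 at 23, Tnf at 22, Cxcl2 at 32 and Ccl4 at 26. Without them 63 and 55 members remained, and values without these 2 barcodes are given where a call or a list's sum rests on them.

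The main comparison set the members against 109 and 100 Cd3e-positive barcodes, in a fit of summed counts that included 8 gates of each library. The library was a block, so its p-values measure only what still differs between these 2 libraries once their shared difference is removed. That spread was estimated over all 8 gates, not from the 2 compared, and it comes from 2 animals only. Folds given below for 1 library alone do not come from this fit. They are log2 ratios of CPM, with 1 CPM added to each level and without the scaling of the fit. Of 6896 genes tested, 320 (4.64%) were higher and 228 (3.31%) lower in the ILC2 gate by edgeR's quasi-likelihood test at an adjusted p of 0.05, 7.95% in either direction, and the median log2 fold change was -0.30. Comparison barcodes were not limited for other genes: 10 and 14 had a sum of at least 3 for the 6 ILC2 genes, and 11 and 10 broke a limit on Dcn or another gene. Against the 89 and 76 Cd3e-positive barcodes that met the same limits and had a sum under 3, 344 of 6974 genes (4.93%) were higher and 124 (1.78%) lower. That restricted set is named below beside calls that it ends and beside many of the folds that it moves by more than 1.5 times. Cutting it by the 6 ILC2 genes also removes barcodes that carry other ILC2 genes. Zeros and larger folds against it are therefore a description and add no support to the calls. When members were also required to have 0 UMIs of Cd3g, edgeR no longer called Icos (adjusted p 0.071), Il1r1 (0.078), Klf6 (0.12), Tnfsf11 (0.095), Dgat2 (0.13), Cd274 (0.054), Ltb4r1 (0.058), Btnl9 (0.063) or Gzmb (0.082), all described below. With a marker sum of at least 2, it no longer called Cxcr6 (0.10), Ccr7 (0.78), Stmn1 (0.21), Nkg7 (0.074), Tnfsf11 (0.061), Ltb4r1 (0.053) or Fabp5 (0.083). Dusp10, Fbn1 and Zap70 also lost their calls in both of these settings. H2-Aa and Hpgds lost theirs with 0 UMIs of Cd3g, and Ctla4, Gzmb and Klre1 with a marker sum of at least 2.

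ILC2 genes outside the rule were higher in the gate than in Cd3e-positive cells. Of 16 such genes, 13 were tested, 9 were higher and 1 lower, with a median log2 fold change of 2.05. Lmo4, a LIM-domain cofactor of GATA proteins, had 3540 and 3543 CPM in the ILC2 gate against 530 and 400 in Cd3e-positive cells, a log2 difference of 3.13 (SE 0.21, adjusted p 1.4e-11 with edgeR, as are the adjusted p-values below). Id2, the inhibitor of E proteins on which innate lymphoid cells depend, had 2297 and 2099 CPM against 421 and 481 (2.48, SE 0.27, adjusted p 1.7e-07). Rora, the gene of RORα, had 1812 and 1581 CPM against 477 and 464 (2.05, SE 0.21, adjusted p 4.9e-08). For all 3 genes both ILC2 sums lay far above both sums of the comparison. In the Cd3e-positive barcodes within the same limits their levels stayed near 400 CPM, at 402 and 292 for Lmo4, 379 and 359 for Id2 and 436 and 425 for Rora.

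Surface and effector genes of the same list were fewer in molecules but also separated. Il2ra, the IL-2 receptor α chain, had 519 and 545 CPM against 124 and 219 (1.86, SE 0.26, adjusted p 1.4e-05), and 2.59 against the restricted set. Klrg1, a lectin-like receptor of mature ILC2, had 374 and 227 CPM against 64.2 and 86.0 (2.21, SE 0.37), or 1.39 in library 2 alone. Arg1, which encodes the arginine-consuming enzyme arginase, had 485 and 327 CPM against 16 and 8.60 (5.22, SE 0.59), and the restricted set held 1 UMI of it. Areg, the gene of the tissue-repair factor amphiregulin, had 340 and 718 CPM against 64.2 and 64.5 (3.21, SE 0.40), and 2.39 in library 1 alone or 4.46 against the restricted set. Il13 had 247 and 81.8 CPM, 29 and 9 UMIs, against 16 and 43.0 (2.69, SE 0.70, adjusted p 0.014). Its library sums lay close in library 2, where the fold alone was 0.91, DESeq2 gave an adjusted p of 0.24, and the restricted set had 0 UMIs. Cxcr6, a chemokine receptor of tissue lymphocytes, had 553 and 518 CPM against 349 and 224 (1.09, SE 0.31, adjusted p 0.024 with edgeR and 0.39 with DESeq2).

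Icos, the costimulator often used to stain ILC2, was the 1 member of this list that was lower, at 93.6 and 81.8 CPM against 317 and 215 (-1.40, SE 0.41, adjusted p 0.030, and 0.20 with DESeq2). Il7r, the IL-7 receptor α chain, did not pass the test, at 315 and 345 CPM against 417 and 318 with overlapping sums. Thy1 had 349 and 282 CPM against 642 and 632 (adjusted p 0.067) and Bcl11b, a factor of T cells and ILC2, 76.6 and 109 against 152 and 202. Il17rb, the receptor for IL-25, had 1 UMI in all members, Il9r had 1 and 3, and Ptger2 had none, so these 3 were not tested. The plot of levels by gate shows these genes beside those of the rule.

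**Figure D1:**
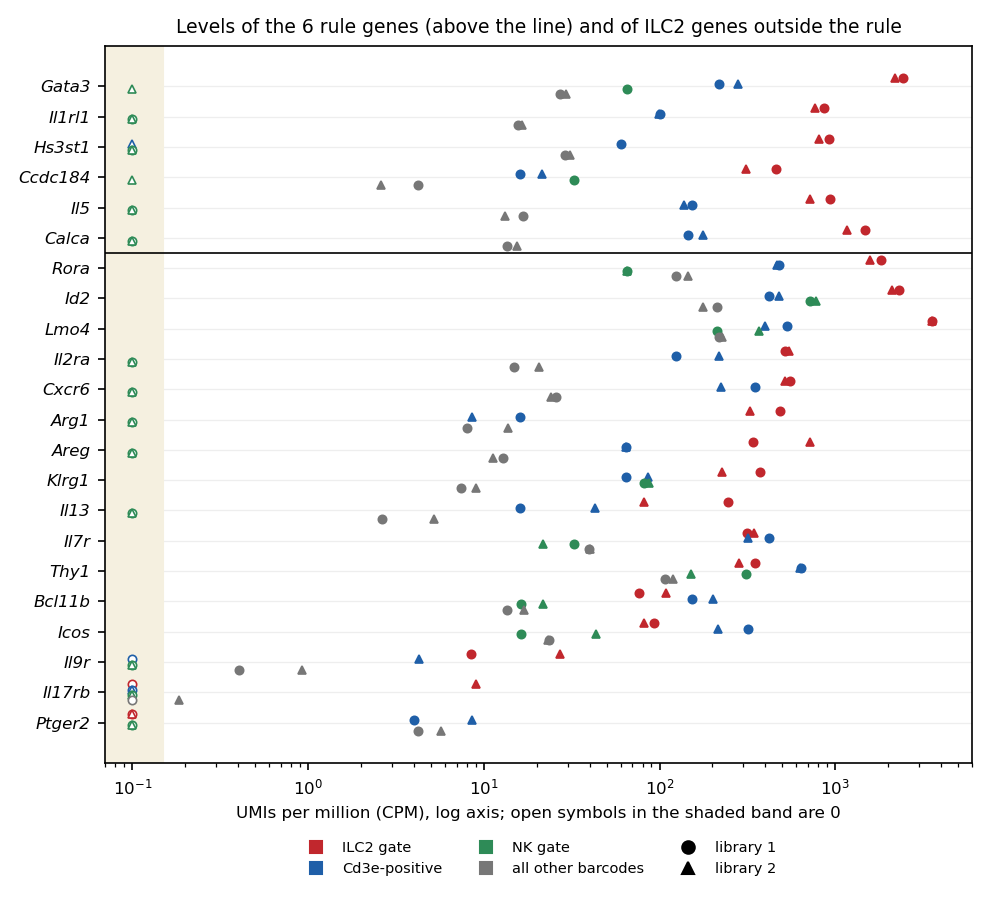
Levels in CPM (log axis) of the 6 rule genes (above the line) and the 16 ILC2 genes outside the rule (below it), summed over the ILC2 gate, Cd3e-positive cells, the NK gate and all other barcodes, with circles for library 1, triangles for library 2 and open symbols in the shaded band for 0. Rora, Id2, Lmo4, Il2ra, Arg1 and Areg lie to the right of every other gate in both libraries, whereas Thy1, Bcl11b and Icos lie below Cd3e-positive cells and the sums of Il7r overlap.

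Among 28 transcription factors linked to ILC2, 25 were tested, 10 were higher and 2 lower, with a median log2 fold change of 0.52. Beside Lmo4, Id2 and Rora, the NF-κB subunit gene Nfkb1 had 1983 and 1890 CPM against 385 and 421 (2.46, SE 0.22, adjusted p 4.1e-09, and 3.08 against the restricted set). Pparg, a lipid-sensing nuclear receptor, had 68.1 and 45.4 CPM against 8.02 and 8.60 (2.95, SE 0.74, adjusted p 0.0096, 2.27 in library 2 alone and 4.37 against the restricted set). Bhlhe40, a repressor induced by activation, had 400 and 581 CPM against 189 and 181 (1.61, SE 0.27). Runx3 had 306 and 291 against 112 and 163 (1.33, SE 0.32). Nr4a1, Zfp36 and Klf6, which are induced within minutes of stimulation, were the others that were higher. Maf, a factor of T helper cells, had 59.6 and 63.6 CPM against 269 and 288 (-1.97, SE 0.41, adjusted p 0.0015). Klf2, which keeps lymphocytes in circulation, had 119 and 63.6 CPM against 445 and 352 (-1.93, SE 0.36, adjusted p 0.00042). Ets1 did not pass the test at 749 and 563 CPM against 510 and 546.

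Of 28 type 2 effector genes, 20 were tested, 10 were higher and 1 lower, with a median log2 fold change of 1.53. Csf2, whose product GM-CSF acts on myeloid cells, had 170 and 166 UMIs, or 1447 and 1508 CPM, against 92.3 and 8.60 CPM (5.03, SE 0.49, adjusted p 4.6e-08). The ILC2 sums lay close to each other, the comparison sums did not, and the restricted set held 0 and 2 UMIs. The fold was 3.96 in library 1 alone and 7.30 in library 2 alone. Ccl1, the ligand of the chemokine receptor CCR8, had 766 and 572 CPM against 16 and 4.30 (6.19, SE 0.41, adjusted p 3.9e-11), 5.49 in library 1 alone, and 0 UMIs in the restricted set. Furin, a protease that matures growth factors, had 3718 and 2825 CPM against 425 and 447 (3.11, SE 0.25, adjusted p 8.8e-10, and 3.79 against the restricted set).

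Il13 and Areg, described above, belong to this list too. Further effectors were higher with less even values. Cxcl2, a neutrophil chemokine, had 996 and 2080 CPM against 457 and 722 (1.58, SE 0.39, adjusted p 0.0084, and 2.87 against the restricted set), and did not pass with DESeq2 (adjusted p 0.25). Tnfsf11, the gene of RANKL, had 145 and 227 CPM against 92.3 and 30.1 (1.79, SE 0.50, adjusted p 0.026), with 0.64 in library 1 alone and an adjusted p of 0.13 with DESeq2. Vegfa had 9 and 3 UMIs in the gate against 2 and 1 (3.24, and 8.23 against the restricted set, a fitted value that is no bound). Dgat2, a triglyceride synthesis gene, had 9 and 10 UMIs (2.94, SE 0.73, 2.19 in library 1 alone and 4.92 against the restricted set). Tnf had 2 and 25 UMIs, of which 22 came from the Cd74-rich barcode; its call (3.02, adjusted p 0.013) was lost without the 2 barcodes (adjusted p 0.76). Ccl5, a chemokine of cytotoxic lymphocytes, was lower, at 68.1 and 427 CPM against 3932 and 5768 (-4.11, SE 0.44, and -5.83 in library 1 alone). A single member of library 2 held 36 of its 47 UMIs there. Il4 had 0 and 5 UMIs in the gate, Il9 had 0 in every gate, and Ltb, at 502 and 345 CPM, did not pass the test.

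Within the gate Csf2, Ccl1, Il13 and Il5 were each found in fewer than 50% of the members of either library, whereas Furin was found in 92.2% and 91.1%. Csf2 was found in 22 and 24 members, and the 5 richest of them held 62.4% and 50.0% of its UMIs. Ccl1 was found in 18 and 11 members, with 73.3% and 84.1% in the 5 richest. Il13 was found in 8 and 6 members and Il5 in 19 and 15, with 89.7% and 88.9%, and 56.4% and 59.5%, in the 5 richest. Calca was less uneven in library 1, at 34.1%, than in library 2, at 52.3%. Klrg1 and Arg1, carried at 1 to 6 UMIs a cell, had 29.5% and 44.0%, and 38.6% and 44.4%. The plot of UMIs per cell shows this spread.

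**Figure D2:**
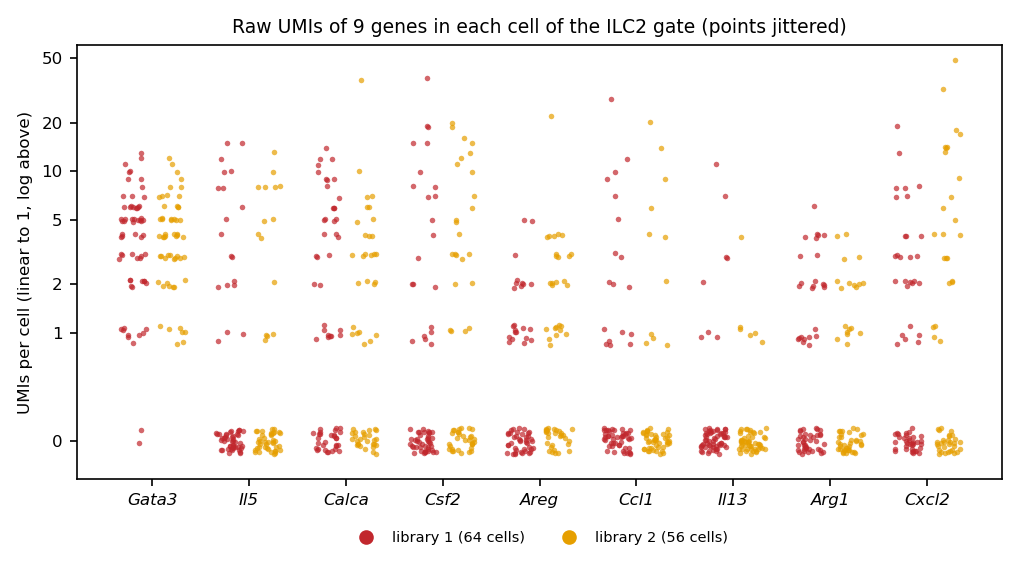
Raw UMIs in each of the 64 (red, library 1) and 56 (orange, library 2) members for 9 genes; the axis is linear to 1 and logarithmic above, and points are jittered. Nearly every member carries Gata3, whereas Il5, Csf2, Ccl1 and Il13 sit at 0 in most members and reach 11 to 38 UMIs in a few in library 1.

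Cells with one effector were not a fixed set. Il5 and Il13 occurred together in 4 and 2 members, where the product of their shares gives 2.38 and 1.61. Il5 and Calca occurred together in 13 and 7 members, where the product gives 10.1 and 7.50. Calca and Ccl1 occurred together in 13 and 8 members, against 9.56 and 5.50. Csf2 and Arg1 occurred together in 13 and 10, against 8.59 and 8.14, and Ccl1 and Arg1 in 8 and 8, against 7.03 and 3.73. Areg and Ccl1 went below the product in library 1, at 3 against 6.47, and above it in library 2, at 7 against 5.30. These pairs are a description over cells of 2 animals, deeper cells show more of every gene, and no test was made.

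Shares of cells with a UMI were compared after thinning each cell to 1000 UMIs, which left out 4 members of library 2. Rora was found in 81.2% of members of library 1 (exact 95% interval 69.5 to 89.9%) and 75.0% of library 2 (61.1 to 86.0%). In Cd3e-positive cells it was found in 29.6% and 47.9%, and in barcodes with at least 3 Dcn UMIs, which are mostly fibroblasts, in 13.7% and 15.2%. Lmo4 was found in 82.8% and 78.8% of members, against 23.1% and 23.4% of Cd3e-positive cells and 17.3% and 18.9% of the Dcn barcodes. Furin was found in 85.9% and 80.8%, against 21.3% and 24.5%, and 6.87% and 8.78%. Csf2 was found in 29.7% (18.9 to 42.4%) and 40.4% (27.0 to 54.9%), against 1.85% and 1.06%, and 0.704% and 0.262% of the Dcn barcodes. Without thinning, Rora was in 90.6% and 91.1% of members, Lmo4 in 85.9% and 83.9%, Furin in 92.2% and 91.1% and Csf2 in 34.4% and 42.9%. The Dcn barcodes, with medians of 3919 and 3556.5 UMIs, are given as a reference cell type; free RNA and their own expression of these genes cannot be told apart.

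**Figure D3:**
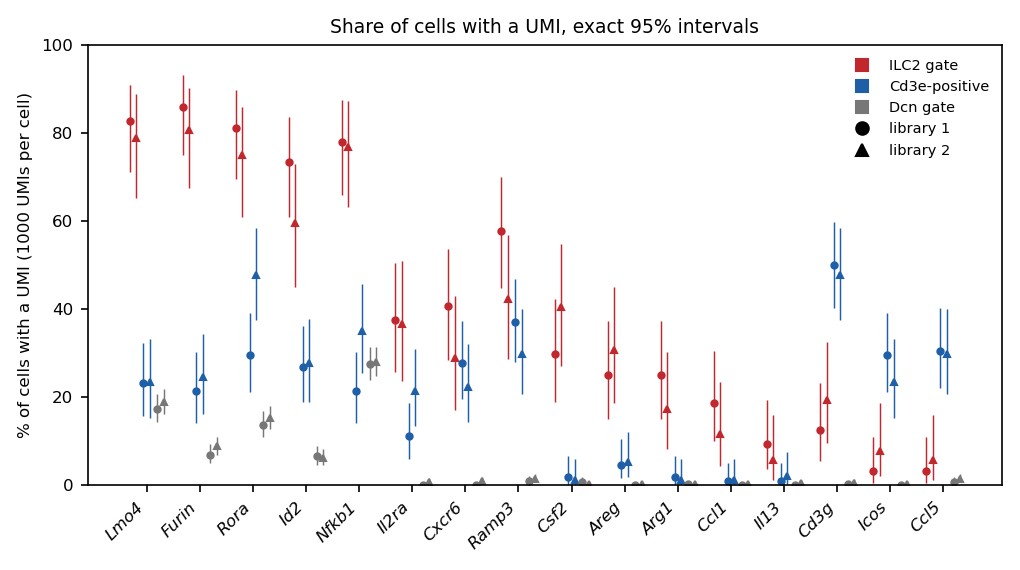
Share of cells with at least 1 UMI of a gene after thinning to 1000 UMIs, with exact 95% intervals, in the ILC2 gate, Cd3e-positive cells and barcodes with at least 3 Dcn UMIs, for each library. Lmo4, Furin, Rora and Nfkb1 are found in over 70% of members, Csf2, Areg, Arg1, Ccl1 and Il13 in a minority, and Cd3g in 12.5% and 19.2% of members against 50.0% and 47.9% of Cd3e-positive cells.

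Of 28 alarmin and cytokine receptor genes, 22 were tested, 5 were higher and 1 lower, with a median log2 fold change of 0.15. Il2ra, described above, was joined by Il2rg, the common γ chain, with 494 and 354 CPM against 209 and 198 (1.26, SE 0.25, adjusted p 0.0011). Il4ra, the shared receptor chain of IL-4 and IL-13, had 281 and 345 CPM against 169 and 129 (1.26, SE 0.27, adjusted p 0.0020). Il10ra had 102 and 127 against 16 and 12.9 (3.16, SE 0.62, adjusted p 0.00096, and 3.85 against the restricted set). Kit, the stem cell factor receptor, had 17 and 8 UMIs in 15 and 8 members, against 0 and 8.60 CPM in Cd3e-positive cells and 0 UMIs in the restricted set (adjusted p 0.00034). Ifngr1, the interferon-γ receptor, was lower at 417 and 236 CPM against 790 and 834 (-1.12, SE 0.26, adjusted p 0.0058, and -1.82 in library 2 alone). Il2rb, at 179 and 145 CPM against 132 and 185, did not pass the test. Il1rap, the partner chain of ST2, had 0 UMIs in the gate, which allows up to 25.5 and 27.3 CPM.

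For neuropeptide and lipid mediators, 27 genes were listed and 17 tested, of which 5 were higher and none lower, with a median log2 fold change of 0.45. Ramp3, a partner protein that shapes the receptors of adrenomedullin and related peptides, had 1208 and 918 CPM against 698 and 542 (0.98, SE 0.21, adjusted p 0.0019). Ramp1, the partner of CALCRL in the CGRP receptor, had 247 and 273 CPM against 193 and 219 and did not pass. Calcrl itself had 0 and 1 UMI in the gate. Ptgir, the prostacyclin receptor, had 221 and 127 CPM against 12 and 12.9 (3.98, SE 0.56, adjusted p 9.4e-06), 3.21 in library 2 alone. Ltb4r1, a leukotriene B4 receptor, had 128 and 245 CPM against 76.2 and 73.1 (1.51, SE 0.42, adjusted p 0.022, and 0.74 in library 1 alone). Alox5, the enzyme that starts leukotriene synthesis, had 10 and 6 UMIs against 12 and 0 CPM (adjusted p 0.015). Hpgds, the prostaglandin D synthase, had 6 and 1 UMIs, and its call (adjusted p 0.026) was lost without the 2 barcodes (adjusted p 0.053) and against the restricted set (0.058). Nr3c1, the glucocorticoid receptor, had 502 and 481 CPM and did not pass. Nmur1, Ptgdr2 and Ptgdr, receptors often used to mark ILC2, had 0 UMIs in every gate, so these libraries do not show them in any cell.

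Genes of migration and retention were called in both directions. Of 30 genes, 22 were tested, 2 were higher and 3 lower, where 4.64% and 3.31% of all genes tested were. Their median log2 fold change was -0.86 beside -0.30 for all genes. Ccr2, a receptor for monocyte chemokines, had 383 and 618 CPM against 193 and 198 (1.55, SE 0.25, adjusted p 6.1e-05), and Cxcr6 was described above. Itgb1, the integrin β1 chain, had 34.0 and 27.3 CPM against 185 and 228 (-2.55, SE 0.49, adjusted p 0.00072). Ccr7, which guides cells to lymph nodes, had 0 UMIs against 80.2 and 73.1 CPM (adjusted p 0.0022, and 0.079 against the restricted set). Klf2 was the third that was lower. Cd69, a retention and activation marker, had 230 and 273 CPM against 201 and 198 and did not pass. Itgb7 had 306 and 254 against 285 and 232 and did not pass either.

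Of 31 costimulatory and checkpoint genes, 24 were tested, 4 were higher and 4 lower, with a median log2 fold change of -1.45. Tnfrsf18, the gene of GITR, had 910 and 718 CPM against 225 and 236 (2.02, SE 0.22, adjusted p 1.3e-07). Cd274, the gene of PD-L1, had 128 and 81.8 CPM against 40.1 and 21.5 (1.95, SE 0.52, adjusted p 0.016). Klrg1 and Kit were the others that were higher. The lower genes were Icos, Cd2, Cd28 and Ctla4. Cd2, an adhesion receptor, had 85.1 and 54.5 CPM against 249 and 241 (-1.60, SE 0.44, adjusted p 0.020, and 0.058 with DESeq2). Cd28 had 17.0 and 99.9 CPM against 229 and 266 (-1.91, SE 0.49, adjusted p 0.012, and 0.17 with DESeq2), or -3.67 in library 1 alone. Ctla4, a T cell checkpoint, had 1 UMI against 76.2 and 86.0 CPM (adjusted p 0.022, and 0.060 against the restricted set). Tnfrsf4, the gene of OX40, had 119 and 109 CPM against 233 and 314 and did not pass.

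Metabolic genes of arginine, lipid and glucose use gave 7 higher and 2 lower of 25 tested of 28, with a median log2 fold change of 0.46. Ldha, lactate dehydrogenase, had 1344 and 790 CPM against 514 and 417 (1.37, SE 0.20, adjusted p 1.9e-05). Aldoa, a glycolytic aldolase, had 868 and 554 CPM against 405 and 387 (1.03, SE 0.23, adjusted p 0.0030). Dgat1, which makes triglycerides, had 706 and 481 CPM against 193 and 249 (1.62, SE 0.24, adjusted p 2.6e-05, and 0.95 in library 2 alone). Slc7a8, an amino acid transporter, had 18 and 12 UMIs against 8.02 and 0 CPM (adjusted p 3.4e-05). Arg1, Dgat2 and Pparg complete the higher genes. Hk2, hexokinase, had 51.1 and 36.3 CPM against 329 and 198 (-2.39, SE 0.59, adjusted p 0.0080), and Fabp5, a fatty acid binding protein, 1 and 2 UMIs against 48.1 and 292 CPM (adjusted p 0.041). Neither was called against the restricted set (adjusted p 0.54 and 0.57) or by DESeq2 (0.078 and 0.097).

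Of 30 genes of cytokine and NF-κB signalling and feedback, 27 were tested, 10 were higher and 1 lower, with a median log2 fold change of 0.86. Nfkbia, the inhibitor that NF-κB induces, had 3582 and 2735 CPM against 995 and 855 (1.96, SE 0.18, adjusted p 9.8e-09, and 2.55 against the restricted set). Tnfaip3, another inhibitor of NF-κB, had 834 and 1008 CPM against 393 and 438 (1.35, SE 0.26, adjusted p 0.00064). Rel and Nfkbiz had 740 and 672 against 225 and 297 (1.65, SE 0.26), and 570 and 282 against 128 and 112 (2.04, SE 0.33, 1.33 in library 2 alone and 3.67 against the restricted set). Socs2 and Cish are feedback genes that STAT5 induces downstream of IL-2 and IL-7. Socs2 had 783 and 636 CPM against 140 and 232 (2.14, SE 0.23, adjusted p 1.1e-07, and 1.45 in library 2 alone). Cish had 434 and 282 CPM against 108 and 193 (1.48, SE 0.32, adjusted p 0.0023, and 0.54 in library 2 alone). Pim1, a kinase induced by the same route, had 1923 and 1890 CPM against 686 and 894 (1.49, SE 0.22, adjusted p 1.8e-05). Jak2 had 204 and 182 against 104 and 90.3 (1.19, SE 0.34). Dusp10 had 255 and 136 against 128 and 73.1 (1.15, SE 0.36, adjusted p 0.044, and 0.13 against the restricted set). Its call was also lost with DESeq2 and without the library as a block. Socs3 was lower at 51.1 and 36.3 CPM against 377 and 258 (-2.65, SE 0.46, adjusted p 0.00016, and 0.067 against the restricted set).

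Immediate early and heat shock genes, which tissue digestion also induces, were listed separately. Of 19 tested, 7 were higher, 1 was lower and 11 were not called, with a median of 0.67, and 11 were higher and none lower against the restricted set. Junb had 10347 and 6677 CPM against 3431 and 3202 (1.53, SE 0.15, adjusted p 2.0e-08), and Jund 4357 and 4333 against 1497 and 1926 (1.55, SE 0.17). Fosb had 1055 and 990 against 562 and 516 (1.12, SE 0.23, and 2.76 against the restricted set), and Ier2 987 and 709 against 554 and 481 (0.91, SE 0.21). Nr4a1 had 1191 and 863 CPM against 494 and 413 (1.37, SE 0.23), Zfp36 800 and 954 against 413 and 464 (1.20, SE 0.23, and 2.49 against the restricted set) and Klf6 859 and 690 against 526 and 537 (0.74, SE 0.22, adjusted p 0.028, and 0.071 without the library as a block). Egr1 was lower at 102 and 18.2 CPM against 498 and 460 (-2.76, SE 0.56, adjusted p 0.0012, and -4.59 in library 2 alone), but not against the restricted set (adjusted p 0.88). The heat shock gene Hspa8 had 1761 and 1245 CPM against 1721 and 1414 and did not pass. The part of digestion in the NF-κB and effector genes was not tested.

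**Figure D4:**
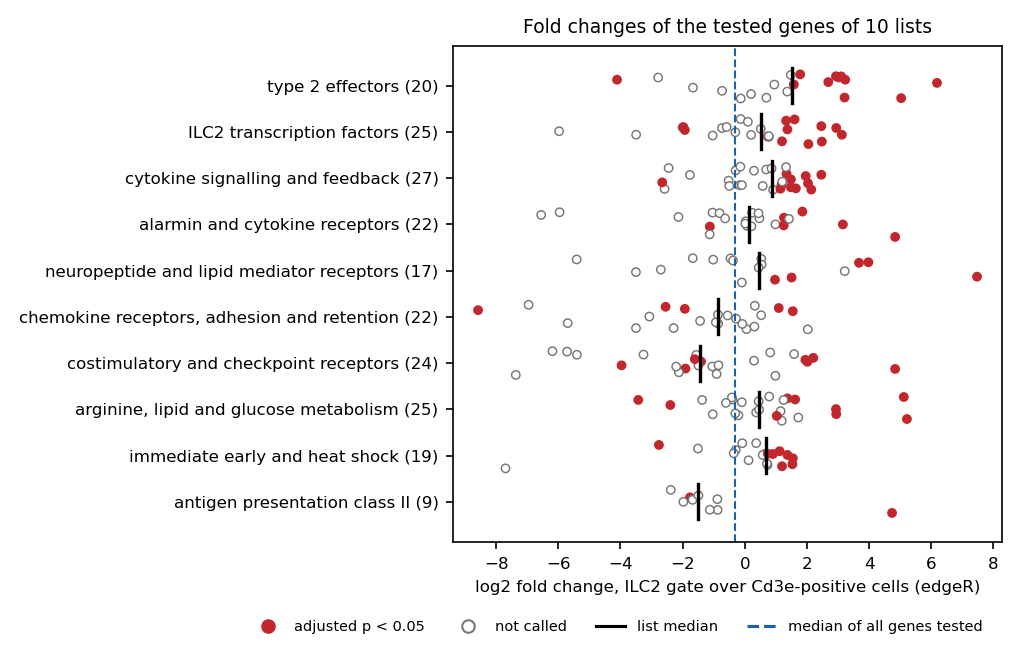
Log2 fold change of the ILC2 gate against Cd3e-positive cells for every tested gene of 10 lists; red points had an edgeR adjusted p under 0.05, the black bar is the median of the list, and the dashed line is the median of all genes tested, -0.30. The effectors have their median at 1.53, and trafficking and costimulatory genes have theirs below 0.

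Class II transcripts of library 2 came mostly from 1 barcode. Of 11 genes, 9 were tested, 1 was higher and 1 lower, with a median log2 fold change of -1.49. Cd74, the invariant chain, had 10 and 92 UMIs, or 85.1 and 836 CPM, against 1264 and 782 CPM in Cd3e-positive cells and 476 and 39.9 CPM in the restricted set, so the order of library 2 changes with that set. The 11 genes summed to 221 and 1626 CPM in the gate, and to 224 and 201 CPM without the 2 barcodes described above. H2-Aa, a class II chain, had 17.0 and 245 CPM against 606 and 417 (-1.76, adjusted p 0.027), -5.07 in library 1 alone and -0.76 in library 2 alone; the call was absent against the restricted set (adjusted p 0.99) and with DESeq2 (0.33). H2-Oa, a class II-like chain that tunes peptide loading, had 5 and 7 UMIs against 4.01 and 0 CPM (adjusted p 0.019, and 0.065 with DESeq2).

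Members showed few transcripts of division. Mki67 and Birc5 had 0 UMIs and Top2a had 2. Of 18 cell cycle genes, 9 were tested, none was higher and Stmn1 was lower, at 3 and 1 UMIs against 144 and 241 CPM (-3.29, SE 0.81, adjusted p 0.0081), -2.45 in library 1 alone and -4.58 in library 2 alone. Hmgb2, at 519 and 581 CPM against 502 and 898, did not pass.

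The rule required Cd3e and Cd3d to be absent, so the T cell receptor complex is in part a matter of the choice of members. Of 23 genes of it, 16 were on exactly 1 row of the matrix and 14 were tested, of which none was higher and 7 were lower, with a median of -2.04. Cd3g had 179 and 191 CPM against 690 and 679 (-1.69, SE 0.26, adjusted p 4.1e-05). Lck, the kinase that starts receptor signalling, had 17.0 and 36.3 CPM against 265 and 254 (-3.09, SE 0.51, and -3.88 in library 1 alone), and Cd247, the ζ chain, 1 and 1 UMI against 132 and 206 CPM (-4.03, SE 0.72). Lat, an adaptor of the same pathway, had 323 and 200 CPM against 558 and 511 and did not pass (adjusted p 0.080). Zap70 had 17.0 and 27.3 CPM against 108 and 107 (adjusted p 0.046, and 0.065 with DESeq2), and Cd8b1 had 0 UMIs.

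Cytotoxic genes gave 0 higher and 7 lower of 18 tested of 22, with a median of -2.95. Gzma, the gene of granzyme A, had 0 UMIs against 477 and 628 CPM, at least 41.7-fold lower when 3 UMIs over both libraries are taken as the limit. Nkg7 had 128 and 27.3 CPM against 401 and 550 (-2.42, SE 0.47, adjusted p 0.00094), -1.64 in library 1 alone and -4.29 in library 2 alone, and an adjusted p of 0.061 with DESeq2. Klrk1 had 1 and 2 UMIs against 100 and 271 CPM, Gzmb 1 UMI, and Klre1 and Klra7 none.

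Fibroblast markers were lower in the gate than in all Cd3e-positive cells, but not than in the restricted set. That set was cut by the same limits on Dcn and other genes as the members, so it cannot decide where the difference arises. Of 10 fibroblast genes 8 were lower, among them Gsn at 85.1 and 36.3 CPM against 2472 and 1883, and none was lower against the restricted set, where Gsn was at 80.3 and 59.8 CPM. Slpi among 9 mesothelial genes tested and Ebf1 among 7 B cell genes were lower too, and neither was called against the restricted set. Endothelial and macrophage lists gave no call. The mast cell list had 4 of 6 tested higher (Cma1, Hdc, Kit and Hpgds), and its sum fell from 2178 and 127 CPM to 199 and 124 CPM without the 2 barcodes. Of the basophil markers Prss34 was at 0, Mcpt8 had 1 UMI and Cd200r3 had 1. Of 16 ILC3 genes 9 were tested, with Tnfsf11 and Kit higher and Il1r1 lower, at 0 UMIs against 40.1 and 30.1 CPM (adjusted p 0.042, and 0.057 with no filter on low counts). Regulatory T cell genes gave Il2ra and Tnfrsf18 higher and Ctla4 lower of 6 tested, and Foxp3 had 2 UMIs in a single member.

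Among called genes whose average log2 CPM over the sums was at least 5, which leaves out Ccl1, Arg1 and others of larger or similar fold, the 12 with the largest positive fold changes against Cd3e-positive cells were Btnl9, Csf2, Hes1, Plk2, Gm20186, Vegfa, Areg, Irs2, Lmo4, Furin, Lilrb4a and Bambi. Hes1, a repressor that Notch signalling induces, had 1881 and 745 CPM against 64.2 and 25.8 (5.01, SE 0.33, adjusted p 1.4e-11), was found in 31 and 22 members, and had 0 UMIs in the restricted set. Hes1 was also present in all other barcodes, at 420 and 305 CPM. Gm20186, an unnamed gene model, had 774 and 781 CPM against 92.3 and 43.0 (3.71, 3.06 in library 1 alone and 4.64 against the restricted set). Irs2, an adaptor of insulin and IL-4 signalling, had 434 and 400 CPM against 56.2 and 51.6 (3.15, and 4.15 against the restricted set). Bambi, a decoy receptor of the TGF-β family, had 545 and 99.9 CPM against 56.2 and 30.1 (3.05, and 1.70 in library 2 alone). Btnl9, a butyrophilin-like gene, had 3 and 4 UMIs against 0, at least 4.94-fold higher, and Plk2, a kinase, 12 and 3 UMIs against 4.01 and 4.30 CPM. Neither was called against all other barcodes (adjusted p 0.90 and 0.68 with edgeR). There Btnl9 had 34.3 and 38.7 CPM, beside 25.5 and 36.3 in the ILC2 gate, and Plk2 63.3 and 47.8, beside 102 and 27.3. Lilrb4a, an inhibitory receptor gene with a close copy, had 85.1 and 164 CPM against 8.02 and 25.8 (3.08, and 4.52 against the restricted set). Of the 12 with the largest negative folds, Gzma, Ly6c2 and Ms4a6b are lymphocyte genes, all at 0 UMIs in the gate, with Ly6c2 at least 29.0-fold and Ms4a6b at least 12.3-fold lower. The others were the stromal genes Col1a2, Gpx3, Mgp, Prss23, Fbln2, Fbn1, Col6a1, Col4a1 and Htra3, none of which was called against the restricted set.

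The NK gate, 34 and 24 barcodes with at least 3 UMIs of 6 NK genes and no Cd3e or Cd3d, offered a second lymphocyte for comparison. It had no limit on other cell types, and in library 2 it held 3052 CPM of 10 endothelial markers (81.9 in library 1) and 649 CPM of 10 fibroblast markers (65.5 in library 1), against 128 and 154 CPM and 145 and 81.8 CPM in the ILC2 gate. Of the endothelial markers Kdr, Fabp4 and Cd36 were lower in the ILC2 gate, and the part of such RNA in the other calls was not tested. Of 6890 genes tested, 401 (5.82%) were higher in the ILC2 gate and 117 (1.7%) lower, 7.52% in either direction, with a median log2 fold change of 0.003. Of the ILC2 identity genes 11 of 13 were higher and none lower, with a median of 4.16. Rora had 65.5 and 64.9 CPM in the NK gate (5.20, SE 0.37, adjusted p 6.6e-11), and Lmo4 213 and 368 (4.16, SE 0.27). Id2, which NK cells also need, had 721 and 779 CPM and the smaller fold of 2.07 (SE 0.31, adjusted p 1.7e-05). Il7r, level with Cd3e-positive cells, was higher than in the NK gate, where it had 32.8 and 21.6 CPM (4.05, SE 0.62, adjusted p 2.7e-05). The log2 ratios of CPM within 1 library were smaller, at 4.77 and 4.58 for Rora, 4.05 and 3.26 for Lmo4, 1.67 and 1.43 for Id2 and 3.23 and 3.93 for Il7r. They lack the scaling of the fit, so they are not the same measure as the fitted folds.

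Several genes of the ILC2 gate were at 0 in the NK gate, whose limit is 49.1 and 64.9 CPM, and bounds are given against 3 UMIs over both libraries. Csf2 was at least 52.8-fold higher, Ramp3 38.2-fold, Cxcr6 19.2-fold, Il2ra 19.0-fold and Areg 18.7-fold. Tmem176b and Tmem176a, a pair of neighbouring membrane protein genes, were at least 14.1-fold and 12.7-fold higher, with 485 and 300 CPM and 366 and 345 CPM in the ILC2 gate. Gfpt1 was at least 6.28-fold higher, and Plaur, Homer1, Man2a2 and Mdfic each at least 5.34-fold. Lower genes included Ly6c2, at least 103-fold lower, and Mef2c, Kcnj8, Mmd, Id1, Arl4d, Sae1, Slc25a24 and Ms4a6b, with 0 UMIs in the ILC2 gate. Counts in the NK gate were low, at 6 and 1 UMIs for Sae1, 3 and 3 for Slc25a24 and 4 and 2 for Ms4a6b. The edgeR calls of Slc25a24 and Ms4a6b (adjusted p 0.046 and 0.042) were both lost with Scrublet doublets removed. Both were also lost with 0 UMIs of Cd3g and with no filter on low counts. Slc25a24 was lost without the library as a block too. Id1 had 1 and 9 UMIs in the NK gate and Kcnj8 4 and 9, so both were fuller in the library with the endothelial RNA. Irf8, a factor of NK and myeloid cells, had 25.5 and 0 CPM against 1409 and 1385 (-6.20, SE 0.47). Ccl5 had 18720 and 27053 CPM in the NK gate (-6.03, SE 0.45), and Tyrobp, an adaptor of activating NK receptors, 2735 and 2597 (-5.56, SE 0.44). In library 1 and library 2 alone, the folds were -5.73 and -10.44 for Irf8, -8.08 and -5.98 for Ccl5 and -7.25 and -5.33 for Tyrobp. Of the 12 tested NK genes outside the gate's own, 11 were lower and none higher. The NK gate was itself chosen by NK genes, so this count follows in part from that choice and is a description.

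Of the other lists, signalling genes gave 13 of 27 higher and none lower against the NK gate (median 1.80). Transcription factors gave 12 higher and 1 lower of 25 (1.33), effectors 8 higher and 3 lower of 20 (4.91), receptors 6 and 1 of 22 (1.11) and neuropeptide and lipid genes 5 and 0 of 17 (3.29). Among the effectors Furin had 49.1 and 108 CPM in the NK gate (5.95, SE 0.41, and 4.69 in library 2 alone) and Ccl1 had 0 UMIs. Immediate early genes gave 9 higher and none lower of 19 (1.48), among them Junb at 4209 and 3549 CPM in the NK gate (1.63, SE 0.15, and 0.91 in library 2 alone). Both comparisons use the same ILC2 sums.

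Against all 3023 other barcodes, which include fibroblasts, endothelial cells, B cells and macrophages, 696 of 10614 genes (6.56%) were higher and 1491 (14%) lower, 20.6% in either direction. The median log2 fold change was -0.80. Of the identity genes 13 of 14 tested were higher and none lower, with a median of 3.91. Ccl1 stood at 4.23 and 3.52 CPM in the other barcodes (7.49, SE 0.29), 174 times lower over both libraries. Csf2 had 16.7 and 14.8 CPM there (6.63, SE 0.23), Areg 12.9 and 11.3 (5.51, SE 0.27, and 4.62 in library 1 alone), Arg1 8.07 and 13.7 (5.31, SE 0.31, and 4.48 in library 2 alone) and Il2ra 14.9 and 20.7 (4.99, SE 0.26). Hilpda, a lipid droplet protein gene, had 1387 and 1435 CPM in the ILC2 gate against 38.3 and 35.0 (5.35, SE 0.22). Rgs2, a brake of G-protein signalling, had 2723 and 2971 CPM against 117 and 110 (4.73, SE 0.20). Tnfrsf18, Furin, Gm20186 and Cxcr6 were also among the 12 largest, with folds of 4.85, 4.62, 4.61 and 4.50.

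The 12 largest negative differences from the other barcodes were genes at 0 UMIs in the ILC2 gate: Col1a2, Gpx3, Fbn1, Col4a1, Fbln2, Prss23, Igfbp5, Gas6, C1qb, Col6a1, Iigp1 and Mgp. Barcodes rich in Dcn, Cdh5, Cldn5 or C1qa could not be members, so low counts of genes of those cells follow in part from the rule. For Col1a2, the Dcn barcodes held 4679 of 4925 and 5901 of 6061 UMIs of the other barcodes. These differences are therefore a description. The bounds ran from at least 26.8-fold lower for Mgp to at least 80.4-fold for the collagen gene Col1a2. DESeq2 called Fbn1 (adjusted p 4.4e-07) but not the other 11, whose adjusted p ran from 0.088 for Col1a2 to 0.19 for Mgp. Signalling genes gave 14 higher and 3 lower of 29 (median 0.92), whereas immediate early genes gave 4 higher and 9 lower of 19 (median -0.46). Junb and Jund were higher in the ILC2 gate (1.55, SE 0.17, and 1.12, SE 0.17), while Egr1 was lower (-4.90, SE 0.30), at 102 and 18.2 CPM against 1777 and 2117, or -6.79 in library 2 alone. Class II genes gave 1 higher and 8 lower of 11 (median -3.34), and Cxcl2 had 1160 and 1037 CPM in the other barcodes (0.51, SE 0.19, adjusted p 0.033, 0.64 with DESeq2, and -0.22 in library 1 alone).

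How members differ was described by splitting them at 1 UMI of Il5 or Calca and summing each part per library. Both genes belong to the rule, and a member at 0 of one had to enter through the other markers, so the splits are given as a description and nothing is read from their counts of calls. Il5-positive members (19 and 15) and Il5-zero members (45 and 41) gave no call among 757 genes other than Il5 itself, 0% in either direction, with edgeR. At an unadjusted p under 0.05 there were 55 genes, and DESeq2 gave 0 calls and 3 at that p. Id2 had 3107 and 3564 CPM in Il5-positive members against 1921 and 1520. Furin had 4794 and 3660 CPM against 3218 and 2496. Both genes had the larger value in Il5-positive members of each library. Csf2 had 2089 and 1124 CPM against 1147 and 1660, in opposite order in the 2 libraries, and Il13 348 and 64.2 against 200 and 88.7.

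Calca-positive members (34 and 28) and Calca-zero members (30 and 28) had median UMIs of 1899.5 and 1944 and of 1745.5 and 1818. With edgeR, 9 genes were called in each direction of 707, 1.27% each and 2.55% together, with DESeq2 none, and without the library as a block 1 and 2. Crip1, a small LIM protein gene, had 2163 and 2400 CPM in Calca-positive members against 5934 and 3458. Tnfrsf4 had 2 and 0 UMIs against 12 and 12, and Bcl2a1b, a survival gene with close copies, 1 and 3 against 15 and 27. Cd69 had 151 and 90.2 CPM against 331 and 457, and Odc1 136 and 433 against 331 and 1025. These 5 genes had the smaller value in Calca-positive members of each library. Id2 had 2707 and 2977 CPM against 1771 and 1208, Emd 923 and 668 against 272 and 183, Sub1 3917 and 2923 against 2121 and 1793 and Impdh2 847 and 361 against 272 and 165. Ccl1 had 1270 and 595 CPM against 117 and 549, a wide gap in library 1 and a narrow one in library 2. Il5 itself had 1195 and 469 CPM in Calca-positive members against 603 and 970, in opposite order in the 2 libraries.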

How the data were processed

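The 2 untreated mice gave 1 library each. Per the submitters' processing notes, Cell Ranger (version not given in the sources used here) and mm10 were used; the matrix the authors deposited holds untransformed UMI counts. Barcodes under 200 genes or over 10% mitochondrial UMIs were dropped. The members and gene lists were chosen with earlier results of these data known. Counts were summed per library and gate and tested with edgeR 4.0.16 in R 4.3.3 (TMM, filterByExpr, quasi-likelihood F-test, Benjamini-Hochberg adjusted p of 0.05), in 1 fit of 16 sums from 8 gates with 7 residual degrees of freedom. The comparison with all other barcodes and both splits used 4 sums each. The SE given with a fold was not fitted. It is the absolute log2 fold change divided by the square root of the F statistic. The library, which is the animal, was a block, since both gates of a library come from 1 mouse. The mesothelial gate held no barcode of its own and was left out.

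Named genes were, for each of the first 3 comparisons, the 12 largest positive and 12 largest negative log2 fold changes among called genes whose average log2 CPM reached 5 and whose sign was shared by both libraries, without genes of the rule. Each split gave the 10 called genes with the smallest p. Of each list, up to 8 members with the highest CPM in the gate and the called members were named. Genes at 0 or few UMIs, such as Il4, Il9, Nmur1 and Ptgdr2, were chosen after their values were seen. T cell receptor constant genes were not on exactly 1 row and were not used here. The tests were checked on simulated data. Alternatives used DESeq2 1.42.0, Scrublet in scanpy 1.11.5, other filters, gates, scalings and thinning, and leaving out each library. Reads of close copies (Lilrb4a, Ms4a6b, Bcl2a1b, Ly6c2, the Klra family) and of overlapping genes may have been split in counting. A few genes that the rule or the lists would name are not reported here.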

Additional observations from a re-analysis of the deposited data

How the results depend on the processing

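Against Cd3e-positive cells, 228 genes were lower, but 150 with the DESeq2 Wald test and 124 against Cd3e-positive cells within the same limits; higher genes ran from 266 to 360. Against all other barcodes, 1491 were lower, but 507 with DESeq2. The Il5 split gave 0 and 0 calls, but 3 higher and 60 lower with no filter on low counts. The Calca split gave 9 and 9, but 0 and 0 with DESeq2, 1 higher and 2 lower with no replicate block, and 21 lower with no filter. Of the genes named and called against Cd3e-positive cells, 105 of 110 kept their call with no replicate block, and 84 of 110 within the same limits, where 6 changed sign: Col3a1 (1.48), Col6a1 (0.000127), Dpt (1.72), Gsn (0.0386), Htra3 (0.000381) and Sparc (1.69). Also reversed in that comparison were Cma1 without library 1 (-2.41, and 9.28 without library 2) and H2-Aa (0.22) with a marker sum of at least 2. Against the NK gate, Cd3g (-6.22) reversed when it had to be 0 and Fabp4 without library 2 (1.80, and -10.81 without library 1). Against the other barcodes, Cd3g (-10.11) reversed in the same way, Ccr7 (0.51) and Cd209a (0.11) with a marker sum of at least 2, Cxcl2 without library 2 (-0.22, and 1.00 without library 1), Slc7a5 without library 1 (-0.51, and 2.95 without library 2), and Tnf without the 2 barcodes (-1.30) or without library 2 (-1.83, and 2.07 without library 1). Cd3g reversed by construction, and for the others the cause was not tested. All 73 UMIs of Cma1 in the gate lay in 1 member of library 1. Of the 25 Tnf UMIs of library 2, 22 lay in 1 of the 2 barcodes. Leaving out a library leaves no residual degrees of freedom, so no fit was made. It gave log2 ratios of CPM, with 1 CPM added to each level, and no counts of calls. With 64 and 56 members, levels under 25.5 and 27.3 CPM could not be told from 0.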
